A study of Homo sapiens with 18 samples.

Results

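The 8 hexosamine pathway genes described here make UDP-GlcNAc or handle it once it is made. They are GFPT1, GFPT2, GNPNAT1, PGM3 and UAP1, which carry out synthesis, OGT and OGA, which cycle O-GlcNAc on proteins, and SLC35A3, which carries UDP-GlcNAc into the Golgi. They were taken by symbol from a table of 57736 genes, and all 8 passed the filter on low counts together with 17317 genes in all. The study asked how the arginine methyltransferase CARM1 and the transcription factor XBP1 take part in the response of ovarian cancer cells to ER stress. Gene expression was measured by 3′ mRNA sequencing in A1847, an established human high-grade serous ovarian cancer cell line. There were 3 genotypes, each with vehicle (ctr) or with 5 μg/ml tunicamycin (TM) for 8 h, and 3 libraries in each of the 6 groups. The control cells (WT) carried both genes, the CARM1 knockout cells (koCARM1) were made with lentiviral CRISPR and kept XBP1, and the XBP1 knockdown cells (shXBP1) carried a lentiviral short hairpin RNA and kept CARM1. The study's methods list a scramble control hairpin but do not tie it to the control cells sequenced here, and whether the knockout cells were a clone is not given in the sources used here.

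The pathway takes fructose 6-phosphate from glycolysis and an amino group from glutamine and, with acetyl-CoA and UTP, ends in UDP-GlcNAc, the sugar donor for N-glycans, glycolipid anchors, hyaluronan and O-GlcNAc. GFPT1 and GFPT2 catalyse the first and rate-limiting step, and GFPT1 and PGM3 are known targets of spliced XBP1, the factor made when IRE1 senses unfolded proteins in the ER. Tunicamycin resembles UDP-GlcNAc and blocks DPAGT1, the enzyme that starts N-glycan assembly from it, so that new glycoproteins misfold in the ER.

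The libraries held 9367462 to 13917212 estimated counts. Nothing in the labels says that the 3 libraries of a group came from separate cultures, so the p-values measure the spread between these libraries, which may be technical. CARM1 itself stood at 160 to 165 CPM (counts scaled to the normalised library size) in vehicle-treated control cells and at 71.6 to 77.7 CPM in the knockout, where 3′ end reads do not read the edited site and so do not check the edit. XBP1 stood at 43.3 to 51.1 CPM in vehicle-treated control cells and at 24.1 to 26.5 CPM in the vehicle-treated knockdown. In tunicamycin XBP1 stood at 148 to 153 CPM in control cells and at 69.05 to 73.66 CPM in the knockdown. The treated knockdown thus held less XBP1 RNA than treated control cells but more than vehicle-treated control cells. HSPA5, the ER chaperone BiP, rose with tunicamycin from a mean of 1277 to 10690 CPM in control cells, from 984 to 13090 CPM in knockout cells and from 1025 to 8133 CPM in knockdown cells.

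The CARM1 knockout libraries stood apart from all the others. Across the 17317 genes, Pearson's r of log2 CPM was 0.986 to 0.989 between libraries of a group, 0.961 to 0.987 between control and knockdown libraries, and 0.731 to 0.775 between knockout libraries and the rest. PAX8, a lineage factor of the fallopian tube and ovarian serous epithelium, had 0 to 2 counts in each control and knockdown library and 39.9 to 65.3 CPM in the knockout libraries. KRT7, an epithelial keratin, averaged 0.573 CPM in vehicle-treated control cells and 412 CPM in vehicle-treated knockout cells, and 6 of the 7 tested genes on a list of 8 ovarian and epithelial markers were higher in the knockout with either treatment. The exception was KRT19, another keratin, with 5 to 44 counts per control library and 0 in each knockout library. COL1A1, a collagen of mesenchymal cells, was also higher in the knockout, at 479 against 14.95 CPM in vehicle and 194 against 9.12 CPM in tunicamycin. DCN, another stromal marker, had at most 20 counts in any library and was lower in the knockout, and the immune and endothelial markers PTPRC, CD3E, CD14 and VWF averaged at most 0.557 CPM in any group. PAX8 was thus at or near 0 in control and knockdown cells and well expressed in knockout cells. Differences between knockout and control cells below are differences between these libraries, in which an effect of the edit and other differences between the 2 cell populations cannot be told apart. In bulk libraries such as these, fewer cells of a type and less RNA per cell cannot be told apart either.

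Promoter windows of 3 members that rose with tunicamycin, GFPT1, PGM3 and OGT, held 3, 3 and 2 copies of CCACG, the end of the ER stress element that XBP1 and ATF6 are known to bind, and a UAP1 window held TGACGTG, the core of the UPR element. Windows of 250 bases before to 50 bases after each RefSeq start in GRCh38.p14 were searched on both strands, and 8 of 8 members matched, in 12 windows of the 35116. The stretches with the matches are shown because GFPT1, PGM3 and OGT had the 3 largest rises among the members in control cells and UAP1 the largest gain of response in the knockout. Capitals mark CCACG or its reverse complement CGTGG in the first 3, and TGACGTG in the last.
GFPT1, chr2:69387228-69387477, minus strand: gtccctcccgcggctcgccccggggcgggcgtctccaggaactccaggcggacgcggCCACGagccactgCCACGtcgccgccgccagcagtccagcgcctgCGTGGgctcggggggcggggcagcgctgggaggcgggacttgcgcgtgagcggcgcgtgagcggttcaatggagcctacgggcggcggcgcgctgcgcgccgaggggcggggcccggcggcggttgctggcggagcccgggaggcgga
PGM3, chr6:83193266-83193325, minus strand: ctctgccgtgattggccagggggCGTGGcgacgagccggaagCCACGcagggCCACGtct
OGT, chrX:71532854-71532954, plus strand: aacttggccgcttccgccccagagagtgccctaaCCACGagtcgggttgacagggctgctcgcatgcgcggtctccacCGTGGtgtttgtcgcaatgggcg
UAP1, chr1:162561536-162561565, plus strand: tgctcccggcgcTGACGTGtctgggcggtc

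Such matches are common in promoters. CCACG was present in 38.1% of all windows at least 2 times in 12.1% and at least 3 times in 3.35% of them, and the 3 matches of GFPT1 and of PGM3 lay before the start. The other PGM3 window held 0 matches. Of the 3 UAP1 windows, one held 2 matches and another 1. OGA, which rose with tunicamycin in each genotype, held 0 matches in its window. GNPNAT1, which also rose in each genotype, held 1, after the start. GFPT2, which fell with tunicamycin, also held 3 matches in its window, all after the start. SLC35A3, which did not rise by the test in any genotype, held 1 match before the start in 1 window and 0 in the other. TGACGTG, which overlaps the cyclic AMP element core ACGTCA on the other strand, was present in 1.97% of windows. The UAP1 site lay at −174 from the start of the window shown and at +18, after the start, in another UAP1 window. No member's window held TGATGNAA, the ATF4 site core found in 3.62% of windows, or the full ER stress element, found in 0.0769% of them. A match describes letters and shows no binding.

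**Figure D1:**
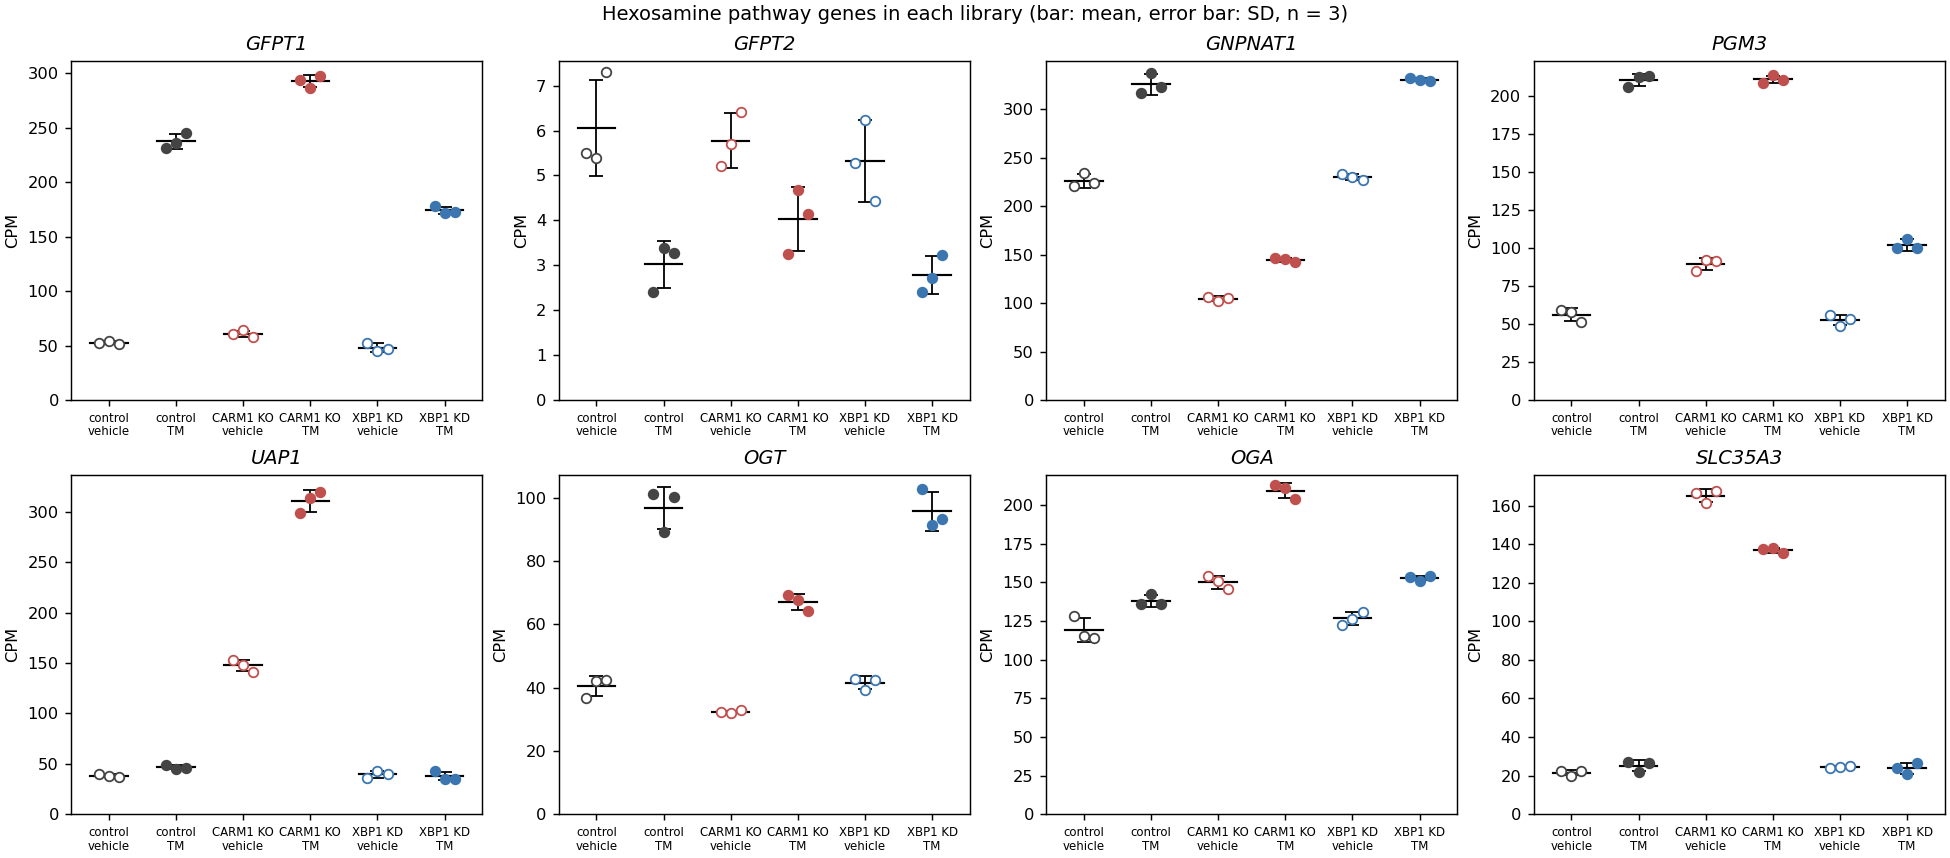
Level of each hexosamine pathway gene in CPM (y axis, from 0, a scale of its own for each gene) in the 18 libraries, with the 6 groups on the x axis, open circles for vehicle and filled circles for tunicamycin. Short bars are means and error bars SDs of 3 libraries. GFPT1, PGM3 and OGT rise with tunicamycin in every genotype, and UAP1 and SLC35A3 stand highest in both knockout groups.

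With tunicamycin, most of the 8 genes rose. In control cells 6 rose, GFPT2 fell and SLC35A3 did not pass the test, against 21.4% of all tested genes higher and 20.4% lower. In knockout cells 6 rose and 2, GFPT2 and SLC35A3, fell, where 18% of all genes were higher and 21.4% lower. In knockdown cells 5 rose and GFPT2 fell, with UAP1 and SLC35A3 not passing, where 19.7% of all genes were higher and 18.5% lower. The median log2 fold change of the 8 was 0.40 in control, 0.76 in knockout and 0.40 in knockdown cells, beside 0.00, −0.03 and 0.00 over all genes. All tests are edgeR's quasi-likelihood tests with Benjamini-Hochberg adjustment over the 17317 genes, and a gene is said to rise or fall at an adjusted p below 0.05.

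Between genotypes, members passed the test in the knockout about as often as all genes did. In vehicle, 5 genes were higher in the knockout, GNPNAT1 and OGT were lower and GFPT2 did not pass, where 38.8% of all genes were higher and 35.3% lower, or 74.2% in either direction against 7 of the 8. In tunicamycin 4 were higher and the same 2 lower, where 38.1% of all genes were higher and 37.1% lower, or 75.2% in either direction against 6 of the 8. None of the 8 passed in vehicle in the knockdown, by edgeR, by DESeq2 or at an unadjusted p below 0.05, where the shares over all genes were 2.34% higher and 2.94% lower. In tunicamycin GFPT1, PGM3 and UAP1 were lower in the knockdown, where 8.65% of all genes were lower. None was higher, by edgeR or DESeq2, where 6.96% of all genes were, and OGA was higher at an unadjusted p of 0.0108.

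The response to tunicamycin itself was compared between genotypes by an interaction term over 4 groups. In the knockout the responses of UAP1 and OGA were larger than in control cells and those of PGM3 and SLC35A3 smaller or lower, where 10.3% of all genes had a higher and 12.7% a lower response. In the knockdown the response of PGM3 was lower, where 1.54% of all genes had a lower response. A higher response was seen for 0.416% of all genes and for none of the 8, by edgeR or DESeq2 or at an unadjusted p below 0.05. The comparisons of both modified genotypes share the control libraries.

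**Figure D2:**
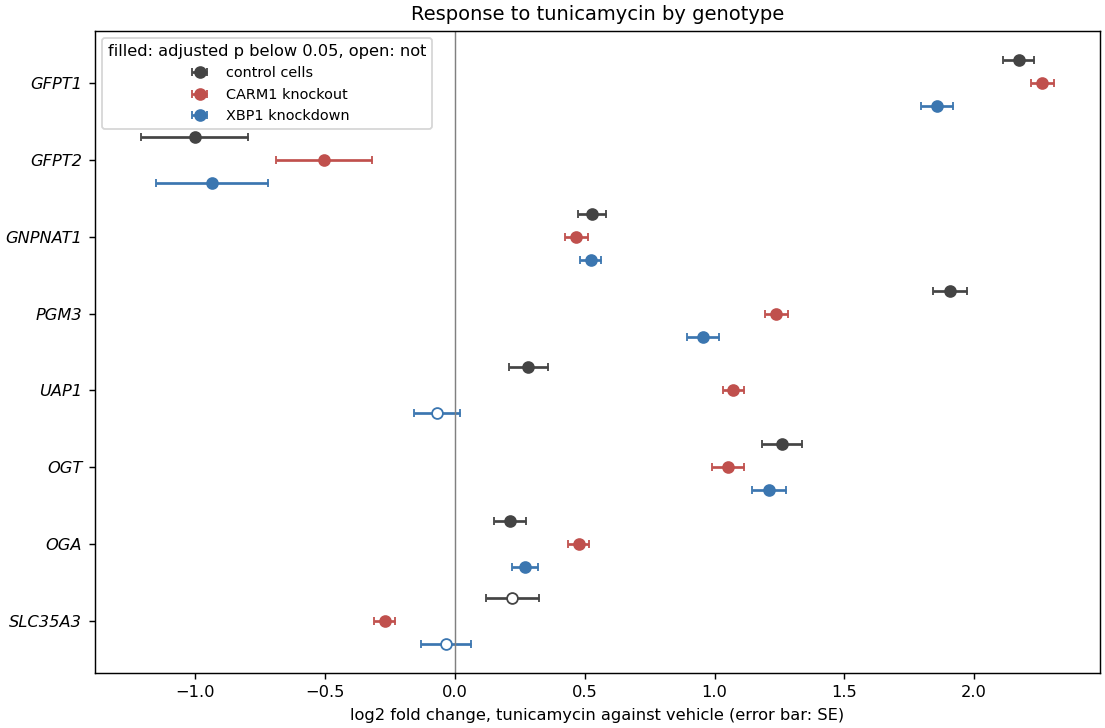
The log2 fold change of each gene with tunicamycin against vehicle (x axis) in control (grey), CARM1 knockout (red) and XBP1 knockdown (blue) cells, with error bars of 1 SE and filled symbols for an adjusted p below 0.05. PGM3 reads 1.91, 1.24 and 0.95 in the 3 genotypes, and UAP1 0.28, 1.07 and −0.07.

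GFPT1 (ENSG00000198380, chr2:69546912-69614382, minus strand, GRCh37 here and below) makes glucosamine 6-phosphate and was the member with the largest rise in each genotype. Vehicle-treated control libraries read 52.4, 54.2 and 51.6 CPM (52.7 ± 1.36, SD, n = 3) and tunicamycin-treated ones 231, 236 and 245 CPM (238 ± 7.06). Every treated library lay above every untreated one, a rise of 2.17 on the log2 scale (SE 0.0587, 4.5-fold, edgeR adjusted p = 5.87e-14) that exceeded in size the change of 96.9% of all tested genes. Knockout libraries read 60.5, 63.9 and 58.2 CPM in vehicle and 294, 287 and 298 CPM in tunicamycin. Knockdown libraries read 52.6, 45.1 and 46.6 CPM in vehicle and 178, 172 and 173 CPM in tunicamycin. The treated libraries thus fell into separate levels by genotype, knockout highest and knockdown lowest. The rise was 2.26 (4.8-fold) in the knockout and 1.86 (3.62-fold) in the knockdown.

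In tunicamycin GFPT1 was lower in the knockdown than in control cells, at a log2 fold change of −0.45 (SE 0.0481, edgeR adjusted p = 1.00e-05). In vehicle the value was −0.13 (adjusted p = 0.363, edgeR), and libraries overlapped. The difference between the 2 rises was −0.31 (SE 0.0813) with an adjusted p of 0.0507 by edgeR, just above the threshold. It passed in 6 of 20 alternatives. Among them were DESeq2 (adjusted p = 0.0273) and edgeR without vehicle library 2 of the knockdown (adjusted p = 0.0433). Over the 20 alternatives the adjusted p ranged from 0.0186 to 0.149. The knockout was higher than control cells by 0.21 in vehicle and by 0.30 in tunicamycin (edgeR adjusted p = 0.00772 and 1.22e-05). With library totals used without normalisation factors, a scaling under which the median of all genes in vehicle was −0.20, the vehicle value of GFPT1 was −0.0058. The difference in the rise with tunicamycin between knockout and control cells did not pass the test (0.09, SE 0.0702, edgeR adjusted p = 0.392).

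GFPT2 (ENSG00000131459, chr5:179727698-179780336, minus strand) encodes the second isoform of the same enzyme and moved the other way. It had 29 to 109 counts per library. Control libraries read 5.49, 5.38 and 7.30 CPM in vehicle and 2.41, 3.38 and 3.27 CPM in tunicamycin, without overlap, a fall of 1.00 on the log2 scale (SE 0.208, edgeR adjusted p = 0.000879). Knockdown libraries read 5.27, 6.24 and 4.42 CPM in vehicle and 2.40, 2.72 and 3.23 CPM in tunicamycin, a change of −0.94 (adjusted p = 0.00272, edgeR). The 2 isoforms therefore changed in opposite directions in these cells.

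In the knockout GFPT2 read 5.20, 5.70 and 6.41 CPM in vehicle and 3.26, 4.68 and 4.13 CPM in tunicamycin, which did not overlap, a change of −0.50 (SE 0.185, edgeR adjusted p = 0.0348). That call was lost without the vehicle library 2 or 3 or the tunicamycin library 1 or 3 of the knockout, with edgeR adjusted p-values of 0.0657 to 0.143, and the count of members that fell there is then 1. GFPT2 did not pass in any comparison between genotypes, where the SEs were 0.179 to 0.302. Its neighbouring groups overlapped throughout the order of its 6 levels.

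GNPNAT1 (ENSG00000100522, chr14:53241911-53258386, minus strand) adds the acetyl group to glucosamine 6-phosphate. Control libraries read 220, 234 and 224 CPM in vehicle and 317, 338 and 323 CPM in tunicamycin, and knockdown libraries 233, 231 and 227 CPM and 332, 330 and 329 CPM. Knockout libraries read 107, 102 and 106 CPM in vehicle and 146, 146 and 142 CPM in tunicamycin. The knockout libraries thus lay below all others, treated or not, while control and knockdown libraries overlapped. The rise was 0.53, 0.47 and 0.52 on the log2 scale in control, knockout and knockdown cells (edgeR adjusted p = 5.25e-07, 7.97e-09 and 7.61e-08), and the interaction terms were −0.06 and 0.00 (SE 0.064 and 0.0624).

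The level of GNPNAT1 was lower in the knockout, at −1.11 in vehicle (SE 0.0486, 2.16-fold, edgeR adjusted p = 9.84e-12) and −1.17 in tunicamycin (2.25-fold, adjusted p = 3.03e-12). It was the member with the largest fall between genotypes. Within 1 Mb of GNPNAT1, 8 of 12 tested neighbours were lower in the knockout in each treatment, with medians of −0.83 and −1.01, where 35.3% of all genes were lower in vehicle and 37.1% in tunicamycin.

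PGM3 (ENSG00000013375, chr6:83857043-83903655, minus strand) turns N-acetylglucosamine 6-phosphate into the 1-phosphate, and its response differed between the libraries of the genotypes. Control libraries read 59.5, 57.9 and 51.0 CPM in vehicle (56.1 ± 4.5) and 206, 212 and 213 CPM in tunicamycin (210 ± 4.04). Knockout libraries read 84.9, 92.1 and 91.3 CPM and 209, 214 and 210 CPM. Knockdown libraries read 55.7, 48.9 and 53.1 CPM and 99.8, 106 and 99.7 CPM (102 ± 3.71). Treated control and knockout libraries overlapped, and each treated knockdown library lay far below both.

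The rise of PGM3 was 1.91 on the log2 scale in control cells (SE 0.0657, 3.75-fold, edgeR adjusted p = 1.21e-12), 1.24 in the knockout (2.36-fold) and 0.95 in the knockdown (1.94-fold). The response in the knockdown was lower, with an interaction term of −0.95 (SE 0.0894, edgeR adjusted p = 5.28e-06), a difference larger in size than that of 90.6% of all genes. In the knockdown the difference lay in the treated level, −1.05 in tunicamycin (2.07-fold lower, adjusted p = 3.87e-09, edgeR) and −0.09 in vehicle (adjusted p = 0.57). In the knockout the response was also lower, with a term of −0.67 (SE 0.078, edgeR adjusted p = 2.28e-06), and here the difference lay in the untreated level, 0.67 in vehicle (adjusted p = 2.56e-07) and 0.00 in tunicamycin (SE 0.0423). PGM3 overlaps DOP1A and RWDD2A on the other strand, which had at most 134 and 216 counts in any library, beside 689 to 2805 for PGM3, and whether the counting used strand is not given in the sources used here.

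UAP1 (ENSG00000117143, chr1:162531512-162571030, plus strand) makes UDP-GlcNAc in the last step and had the widest range of group levels among the 8, 3.04 on the log2 scale. Control libraries read 40, 38.1 and 36.5 CPM in vehicle and 48.7, 45.2 and 45.4 CPM in tunicamycin. Knockdown libraries read 36.1, 42.7 and 40.3 CPM and 42.6, 35.3 and 35.3 CPM. Knockout libraries read 153, 148 and 142 CPM in vehicle (148 ± 5.69) and 299, 314 and 320 CPM in tunicamycin (311 ± 11.03). All 6 knockout libraries lay well above the 12 others.

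In the knockout UAP1 rose with tunicamycin by 1.07 on the log2 scale (SE 0.0409, 2.1-fold, edgeR adjusted p = 2.02e-15). In control cells it rose by 0.28 (SE 0.0747, adjusted p = 0.00575, edgeR), and in the knockdown the value was −0.07 (adjusted p = 0.601). The response in the knockout was larger than in control cells by 0.79 (SE 0.0783, edgeR adjusted p = 2.81e-07), while the interaction in the knockdown was −0.35 (SE 0.118, adjusted p = 0.16), which reached an adjusted p of 0.0434 without tunicamycin library 1 of the knockdown and ranged to 0.351 over the alternatives. UAP1 was thus higher in the knockout by 1.95 in vehicle (3.87-fold, edgeR adjusted p = 1.10e-13) and by 2.75 in tunicamycin (6.7-fold, adjusted p = 1.14e-15). In tunicamycin it was lower in the knockdown, at −0.29 (SE 0.083, edgeR adjusted p = 0.0241). That call, 1 of the 3 made in the knockdown, was lost without control library 1 or 3 or knockdown library 2 or 3, all treated, with adjusted p-values of 0.0657 to 0.113.

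OGT (ENSG00000147162, chrX:70752937-70795742, plus strand) is the enzyme that attaches O-GlcNAc to nuclear and cytosolic proteins. Control libraries read 36.8, 42.1 and 42.4 CPM in vehicle and 101, 89.2 and 100.3 CPM in tunicamycin, and knockdown libraries 42.9, 39.1 and 42.4 CPM and 103, 91.2 and 93.1 CPM. Knockout libraries read 32.2, 32.0 and 32.8 CPM and 69.1, 67.7 and 64.1 CPM. Control and knockdown libraries overlapped in both treatments, and knockout libraries lay below them in both.

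OGT rose by 1.26 in control cells, 1.05 in the knockout and 1.21 in the knockdown on the log2 scale (SE 0.0764, 0.0626 and 0.066, edgeR adjusted p = 1.27e-09, 5.79e-12 and 1.23e-09). The interaction terms were −0.21 and −0.05 (SE 0.0986 and 0.103) and neither passed. The level was lower in the knockout, at −0.33 in vehicle and −0.53 in tunicamycin (edgeR adjusted p = 0.00163 and 1.54e-06).

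OGA (ENSG00000198408, chr10:103544200-103578222, minus strand), the hydrolase that removes O-GlcNAc, moved less. Control libraries read 128, 115 and 114 CPM in vehicle and 136, 143 and 136 CPM in tunicamycin. Knockout libraries read 154, 151 and 146 CPM and 213, 211 and 204 CPM, and knockdown libraries 122, 127 and 131 CPM and 153, 151 and 154 CPM. The treated libraries lay above the untreated ones in each genotype, by the widest gap in the knockout.

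The rise of OGA was 0.21 in control cells (SE 0.0616, edgeR adjusted p = 0.0104), 0.48 in the knockout (SE 0.0399) and 0.27 in the knockdown (SE 0.0488). The rise in control cells did not pass without vehicle library 2 of the control cells (0.19, adjusted p = 0.0557, edgeR) or with library totals (0.13, adjusted p = 0.0945), and over all alternatives its adjusted p ranged from 0.000824 to 0.0945. The response in the knockout was larger than in control cells by 0.265 (SE 0.0723, edgeR adjusted p = 0.0106). The level was higher in the knockout by 0.33 in vehicle and 0.60 in tunicamycin, and with library totals the value in vehicle was 0.12 (adjusted p = 0.0576, edgeR), the highest of its alternatives. The transferase and the hydrolase therefore both rose with tunicamycin in every genotype, OGT by more, while the knockout held less OGT and more OGA RNA than control cells.

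SLC35A3 (ENSG00000117620, chr1:100434907-100501190, plus strand) is the Golgi transporter for UDP-GlcNAc and was the member that differed most between knockout and control cells in vehicle, while UAP1 differed more in tunicamycin. Control libraries read 22.4, 19.9 and 22.4 CPM in vehicle and 26.9, 22.0 and 26.4 CPM in tunicamycin, and knockdown libraries 23.9, 24.3 and 24.9 CPM and 24.0, 20.7 and 26.4 CPM. Knockout libraries read 167, 162 and 167 CPM in vehicle (165 ± 3.18) and 137, 138 and 135 CPM in tunicamycin (137 ± 1.36). The 6 knockout libraries lay far above the 12 others, and the treated knockout libraries below the untreated ones.

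The difference between knockout and control cells was 2.94 in vehicle (SE 0.0632, 7.65-fold, edgeR adjusted p = 1.72e-15) and 2.44 in tunicamycin (SE 0.0698, 5.44-fold, adjusted p = 1.03e-13). SLC35A3 fell with tunicamycin in the knockout, at −0.27 (SE 0.04, edgeR adjusted p = 8.88e-06), and the value in control cells was 0.22 (SE 0.102, adjusted p = 0.0977), which passed without treated control library 2 (0.31, adjusted p = 0.0289, the lowest of 14 alternatives that ranged to 0.308). The responses differed by −0.49 (SE 0.0970, edgeR adjusted p = 0.000775). In the knockdown the value was −0.04 (SE 0.0964). A same-strand readthrough gene covers most of SLC35A3 and was not analysed here, so reads of the 2 could not be separated.

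**Figure D3:**
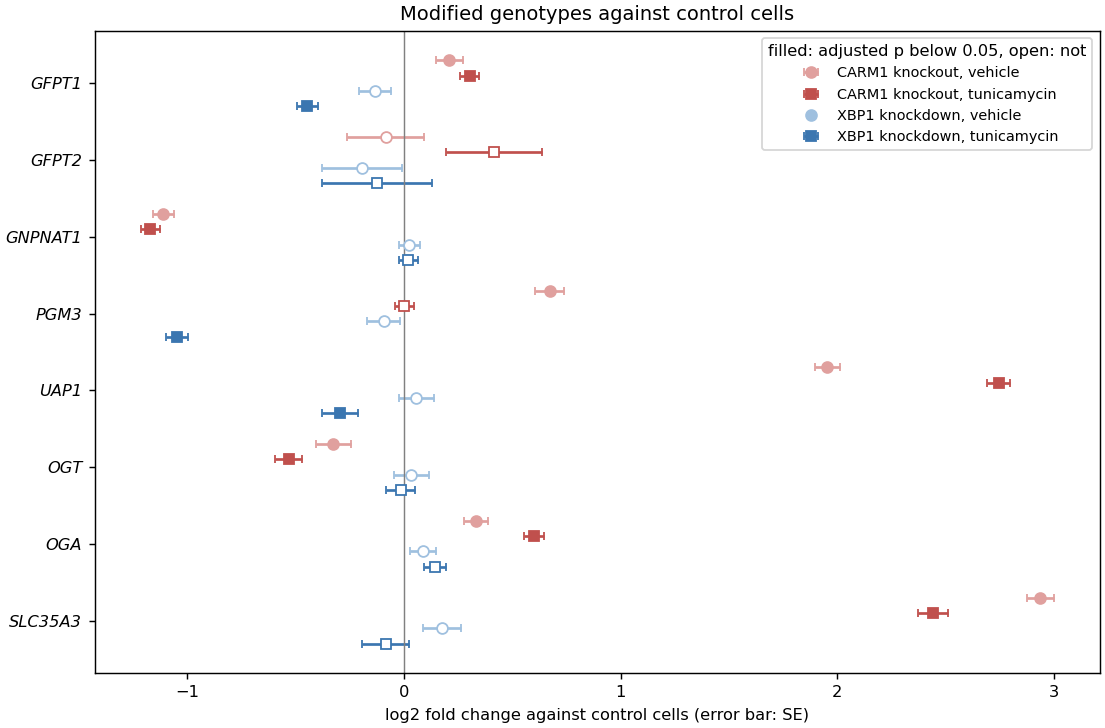
The log2 fold change of each gene in CARM1 knockout (red) or XBP1 knockdown (blue) cells against control cells (x axis), in vehicle (pale circles) or tunicamycin (dark squares), with error bars of 1 SE and filled symbols for an adjusted p below 0.05. UAP1 and SLC35A3 lie at 1.95 to 2.94 in the knockout and GNPNAT1 at −1.11 and −1.17, while the knockdown values lie within 0.45 of 0 except for PGM3 in tunicamycin at −1.05.

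The order of the 6 groups differed by gene. GFPT1 ran from treated knockout through treated control and treated knockdown to the 3 vehicle groups, and only the last neighbours, vehicle-treated control and knockdown cells, overlapped. PGM3 had the same order, but there treated knockout and treated control cells overlapped as well. UAP1 and SLC35A3 began with the knockout groups, UAP1 with the treated and SLC35A3 with the untreated one. For SLC35A3 the 4 other groups lay between means of 21.6 and 25.1 CPM, each overlapping its neighbour. OGT had treated control and treated knockdown cells first, overlapping, and OGA had treated knockout cells first, apart from the rest.

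For the 3 members with the widest range, the genes with the most similar 6 group means were sought among the 9517 tested genes whose log2 CPM averaged 3 or more, after centring each gene. FKBP11, an ER membrane prolyl isomerase, was nearest to UAP1, at a root mean square difference of 0.12 on the log2 scale, ahead of RBMS3 at 0.23 and SRGAP1 at 0.24. SMURF2, CPPED1 and SLC2A6 were nearest to SLC35A3 at 0.07, 0.08 and 0.09. EDEM1, SELENOS and CARS1 were nearest to GFPT1 at 0.15, 0.20 and 0.22. EDEM1 and SELENOS belong to ER-associated degradation and CARS1 charges tRNA with cysteine. These distances rest on 6 means from 18 libraries and are a description.

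The members that stood highest in the knockout could share that with the genes beside them. The tested genes within 1 Mb of UAP1 and of SLC35A3 were therefore described. Like the neighbours of GNPNAT1 above, they were picked after the values had been seen. Neighbours of the other members were counted as well and are left out here, except those of PGM3, which were also picked afterwards. Around PGM3, 9 of 13 neighbours were higher and 2 lower in the knockout in vehicle, with a median of 0.70. In tunicamycin 6 of them were higher and 3 lower, with a median of 0.30. Around SLC35A3, 13 of 15 neighbours in vehicle and 12 of 15 in tunicamycin were higher in the knockout, with medians of 0.76 and 1.01 on the log2 scale, lowest values of −0.32 and 0.41, and 1 neighbour above SLC35A3 in each treatment. Around UAP1, 3 of 14 in vehicle and 1 of 14 in tunicamycin were higher, 5 and 9 were lower, the medians were −0.25 and −1.07, and 3 and 0 exceeded UAP1. Over all genes 38.8% were higher and 35.3% lower in vehicle, and 38.1% and 37.1% in tunicamycin. Copy number was not measured, and its part in these values was not tested.

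**Figure D4:**
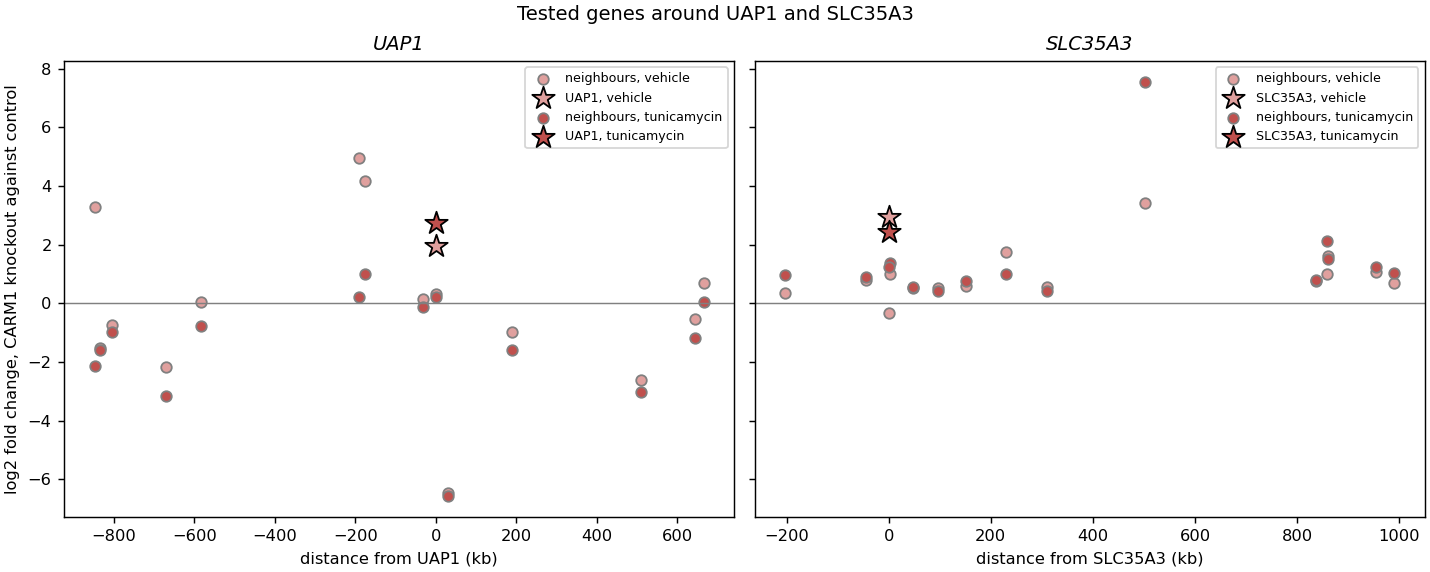
The log2 fold change in CARM1 knockout against control cells (y axis) of tested genes within 1 Mb of UAP1 (left) and SLC35A3 (right), by distance from the member in kb (x axis). Stars are the members, pale symbols vehicle and dark symbols tunicamycin. Most points around SLC35A3 lie above 0, and around UAP1 9 of the 14 neighbours were lower in tunicamycin.

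Of 37 further genes that supply, salvage or use the products of the pathway, 36 passed the filter. With tunicamycin 14 rose and 9 fell in control cells, 11 rose and 10 fell in the knockout, and 10 rose and 8 fell in the knockdown, so that 23, 21 and 18 of the 36 passed where 41.8%, 39.4% and 38.2% of all genes did. The medians were 0.01, −0.05 and 0.01 on the log2 scale, beside 0.40 to 0.76 for the 8 members. In the knockout against control cells 18 were higher and 11 lower in vehicle, and 13 and 11 in tunicamycin, beside 74.2% and 75.2% of all genes in either direction. In the knockdown 1 was higher and 1 lower in vehicle, and 4 and 7 in tunicamycin, beside 5.28% and 15.6% of all genes.

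Among 6 genes of glucose and glutamine supply, 3 rose and 2 fell in control cells. HK2, a hexokinase, rose by 0.89 (SE 0.0673), and SLC1A5, a glutamine carrier, by 0.75 (SE 0.0562). SLC2A1, the glucose carrier GLUT1, rose by 0.50 in control cells and fell by 0.21 in the knockout, and these responses differed by −0.71 (SE 0.0886, edgeR adjusted p = 5.36e-06). Of 6 salvage and turnover genes 1 rose and 2 fell. NAGK, the kinase that returns free GlcNAc to the pathway, rose by 0.42, GNPDA1, which converts glucosamine 6-phosphate back to fructose 6-phosphate, fell by 0.62, and UAP1L1, a relative of UAP1, fell by 1.12. GNPDA1 fell in every genotype, the reverse of GFPT1, whose reaction it opposes.

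Among 12 tested enzymes that use UDP-GlcNAc, 4 rose and 3 fell in control cells. PIGA, part of the enzyme that starts glycolipid anchors, rose from 3.78 to 17.9 CPM, a log2 fold change of 2.24 (SE 0.149). DPAGT1, which tunicamycin inhibits, rose by 0.66 in control cells, 0.63 in the knockout and 0.31 in the knockdown (edgeR adjusted p = 1.32e-06, 2.09e-07 and 0.00364). MGAT2, a Golgi branching enzyme of N-glycans, rose by 1.52 and MGAT4B, another, fell by 1.65. The enzymes at the Golgi end of the pathway thus moved in both directions.

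Of 5 sialic acid genes 2 rose and 1 fell in control cells. NANS, the sialic acid synthase, rose by 1.21 (SE 0.0647), GNE, which draws UDP-GlcNAc into this branch, by 0.32, and NANP fell by 0.39. Of 7 other nucleotide sugar transporters 4 rose and 1 fell. SLC35A2, SLC35D1 and SLC35A5 rose by 0.52, 0.52 and 0.50, while SLC35D1 fell by 0.44 in the knockout, so that its responses differed by −0.96 (SE 0.16, edgeR adjusted p = 0.000147).

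In the knockdown 4 of the 36 genes had a lower response to tunicamycin than in control cells by edgeR's test, as did 1.54% of all genes. They were MGAT2 (−1.10, SE 0.165), NANS (−0.52, SE 0.0818), MGAT1, the first branching enzyme (−0.47), and HK2 (−0.41), with edgeR adjusted p = 0.000719, 0.00103, 0.03 and 0.00883. MGAT2 stood at 11.6 CPM in vehicle and 33.5 CPM in tunicamycin in control cells and at 10.9 and 14.6 CPM in the knockdown. Its difference of response was of the size seen for PGM3, −0.95, and in the knockout its response was lower too, at −1.09 (SE 0.148).

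**Figure D5:**
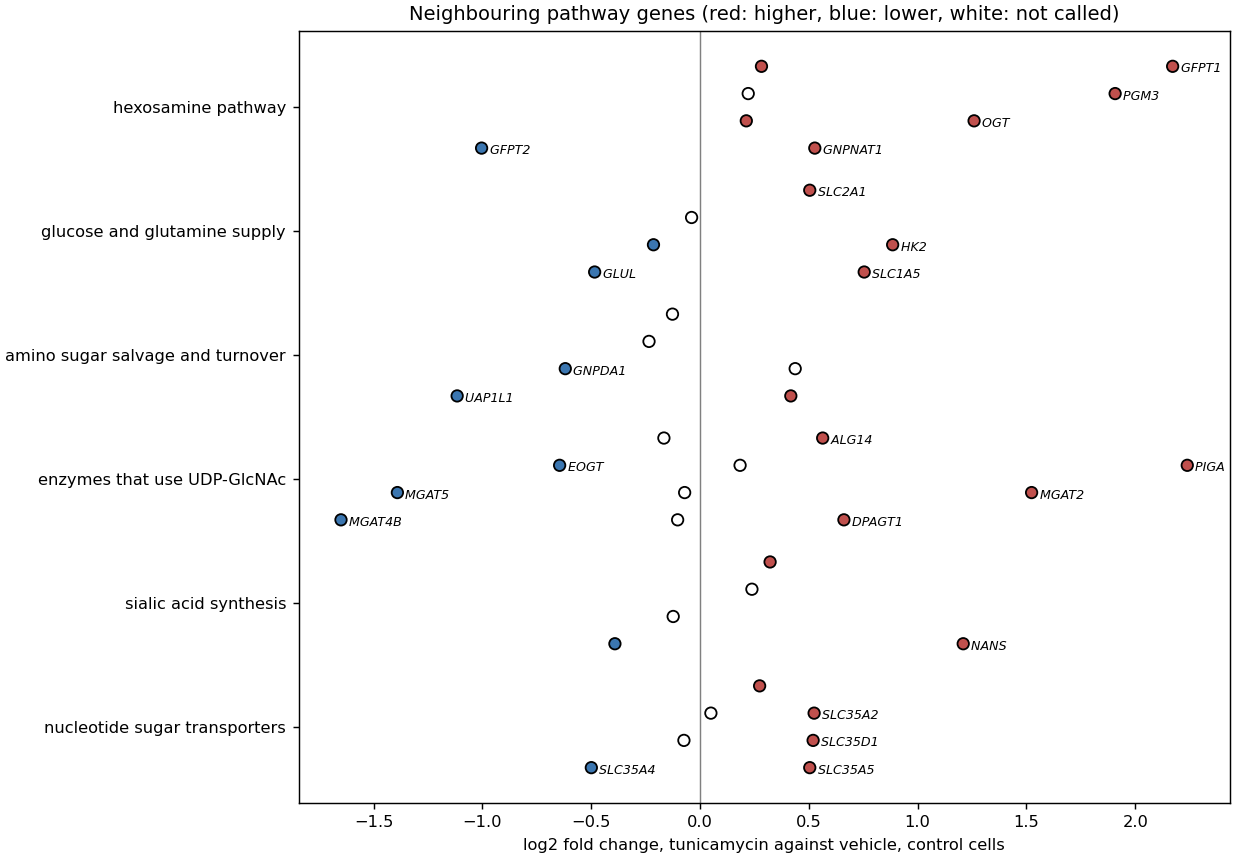
The log2 fold change with tunicamycin in control cells (x axis) for the hexosamine pathway genes and 5 groups of related genes (rows), red for higher, blue for lower and white for not passing the test. Names are given for genes beyond 0.45 in size, and HAS3, with 0 to 10 counts in the control-cell libraries, is left out. The pathway's own genes reach 2.17, and the groups below lie on both sides of 0.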

How the data were processed

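Total RNA of 18 A1847 samples was converted to 3′ mRNA libraries (Lexogen) and sequenced by the authors as 75 nt single reads. The authors aligned reads with bowtie2 to hg19 and deposited expected counts per gene from RSEM with Ensembl annotation, whose release is not given in the sources used here. The deposited estimated counts were whole numbers. Symbols and GRCh37 positions came from GENCODE, promoters from RefSeq.

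Genes were kept by edgeR's filterByExpr with a minimum count of 10, given all libraries and the 6 groups. This filter does not ask for 10 counts in every library. TMM factors came from all 18 libraries. Each comparison was fitted on its own groups by edgeR 4.0.16 (limma 3.58.1, R 4.3.3) with the quasi-likelihood test. Log2 CPM used a prior count of 2. An exact permutation test of 3 against 3 cannot go below p = 0.1 and was not used. The code was tested on simulated counts. Alternatives were DESeq2 1.42.0, its size factors, other filters, all libraries in 1 fit, a replicate block, library totals and leaving out each library.

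All 8 members were named in every comparison. CARM1, XBP1 and HSPA5 were named as checks, DPAGT1 as the target of tunicamycin, and in each related list up to 3 genes with the largest change among those that passed in control cells. MGAT1 was named after its values were seen. The members and lists were chosen with earlier results of these data known.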

Additional observations from a re-analysis of the deposited data

Results flagged for a closer look

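The responses to tunicamycin of 5 member and genotype pairs differed from those of control cells by the interaction term, tested with edgeR's quasi-likelihood test. PGM3 differed by −0.67 on the log2 scale in the knockout and by −0.95 in the knockdown. UAP1 differed by 0.79, OGA by 0.265 and SLC35A3 by −0.49 in the knockout. Over all 20 alternatives of each, these values ranged from −0.71 to −0.60 for PGM3 in the knockout and from −1.003 to −0.887 in the knockdown, from 0.76 to 0.85 for UAP1, from 0.21 to 0.32 for OGA and from −0.58 to −0.44 for SLC35A3, and each passed the test in 20 of 20.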

How the results depend on the processing

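Across alternatives other than leaving out a library, 134 of 144 counts of members equalled the main count or stayed within a set ratio of it. This rule lets small shifts of a count pass. Of the member values, 557 of 576 kept their direction and their side of the threshold. The members that fell with tunicamycin in the knockout numbered 1 in place of 2 with DESeq2's Wald test, without a filter and with all libraries in 1 fit, since GFPT2 was lost (adjusted p = 0.0914, 0.0575 and 0.0549). The members with a lower response in the knockdown numbered 2 in place of 1, GFPT1 being added, with DESeq2, without a filter, with at least 10 counts in every library, with all libraries in 1 fit and with the filter and factors from the compared libraries. With all libraries in 1 fit, 1 member (OGA) was higher in the treated knockdown in place of 0. With library totals, an alternative chosen after seeing the data that moves the median of all genes to −0.20 in vehicle and −0.18 in tunicamycin, 3 members in place of 5 were higher in the vehicle-treated knockout.

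Values near 0 changed sign. With library totals GFPT1 read −0.0058 in the vehicle-treated knockout, PGM3 −0.157 in the treated knockout (adjusted p = 0.00381, edgeR) and GNPNAT1 0.0169 for the interaction in the knockdown. PGM3 read −0.0032 without a filter. The same GNPNAT1 interaction read 0.009 with size factors, 0.0091 with DESeq2 and 0.0007 with the stricter filter.

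With each library left out in turn, 126 of 132 counts equalled the main count or stayed within the set ratio of it. Of the values, 497 of 528 kept direction and side. Members that rose with tunicamycin in control cells numbered 5 to 7, those that fell in the knockout 1 to 2, those lower in the treated knockdown 2 to 3 and those with a lower response in the knockdown 1 to 2. Values that changed sign lay close to 0. They were SLC35A3 with tunicamycin in the knockdown (−0.119 to 0.0478), GFPT2 in the vehicle-treated knockout (−0.165 to 0.0758) and PGM3 in the treated knockout (−0.014 to 0.011). In the knockdown they were OGT in vehicle (−0.0271 to 0.0753) and tunicamycin (−0.0719 to 0.0172), SLC35A3 in tunicamycin (−0.169 to 0.0003), and the interactions of GNPNAT1 (−0.0296 to 0.0228), OGT (−0.106 to 0.0111) and GFPT2 (−0.0928 to 0.201).

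Same-numbered libraries did not deviate together (r −0.25 to 0.24 over 45 pairs), so the numbers were not taken as a pairing. A fit with the number as a replicate block changed no member's call, with 6 of the 8 rising with tunicamycin in control cells under it. Over all genes it lowered the count with a higher response in the knockdown from 72 to 47. Depth limits GFPT2 most, at 29 to 109 counts per library.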

Other observations

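Some related genes showed differences that the named examples above leave out, and they were picked after their values were seen. GLUL, the glutamine synthetase whose product feeds the first step of the pathway, had 121 to 144 counts in vehicle-treated and 79 to 101 in tunicamycin-treated control libraries, against 0 in each vehicle-treated and 0 to 1 in each treated knockout library. In the knockdown it had 66 to 88 and 39 to 59 counts, lower than in control cells at −0.89 in vehicle and −0.90 in tunicamycin on the log2 scale (edgeR adjusted p = 0.00324 and 0.00471). SLC1A5, the glutamine carrier, was higher in the knockout than in control cells, at 0.43 in vehicle and 0.75 in tunicamycin (edgeR adjusted p = 1.31e-06 and 1.54e-09).

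MGAT5, a branching enzyme of N-glycans in the Golgi, fell with tunicamycin at −1.39 in control cells, −0.50 in the knockout and −1.42 in the knockdown, and its response differed in the knockout by 0.90 (edgeR adjusted p = 1.03e-05). MGAT1, which acts first in branching, rose by 0.72 in the knockout and fell by 0.64 in the knockdown with tunicamycin, and its value in control cells was −0.17 (edgeR adjusted p = 1.17e-08, 1.73e-05 and 0.104).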
